A study of Mus musculus with 17 samples.

Results

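The genes described here are the interleukins and the interleukin receptors of the mouse, followed through 17 liver libraries. Rows of the deposited table were taken whose gene symbol begins with Il and a digit, leaving out Il4i1, an amino acid oxidase, and pseudogene names. The rule gave 82 of the 52545 genes in the table, made up of 37 ligands, 38 receptor chains, 2 decoy receptors, 4 antagonists or binding proteins and 1 antisense RNA. The tissue is labelled as non-tumorous liver and came from male mice of the strain C57BL/6J at an age of 32 weeks, and the study asked what an antibody against claudin-1 (CLDN1), a tight junction protein, does in a model of fatty liver disease with liver cancer. The 6 CLDN1 mAb libraries came from mice that received the carcinogen diethylnitrosamine (DEN) once at 100 mg/kg in week 1, the diet CDA-HFD, and 500 µg of CLDN1 mAb by intraperitoneal injection 1 time per week for 16 weeks. The 6 Vehicle Control libraries came from mice with the same DEN and CDA-HFD whose weekly injections held PBS. The 5 Regular diet libraries came from mice on regular diet with no treatment, so carcinogen, diet and injections cannot be told apart in any comparison with regular diet. Titles number the mice within each group, and each library was taken as 1 mouse.

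Interleukins are secreted proteins by which leukocytes and tissue cells signal to each other through paired receptor chains. Receptors for IL-1, IL-33 and IL-36 pair a ligand-binding chain with the accessory chain IL1RAP, and the IL-18 receptor pairs IL18R1 with IL18RAP. These receptors signal through MYD88, and IL-1 family signalling is held back by a receptor antagonist, decoy receptors and binding proteins. Most other members bind cytokine receptors that signal through JAK kinases and STAT factors, and share chains such as the common gamma chain, gp130 or IL10RB. In liver, hepatocytes are known targets of IL-1 and IL-6 in the acute phase response, whereas most interleukins and many of their receptors are made by lymphocytes and myeloid cells.

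Values are normalized counts, with an estimated depth of 27734992 to 59565319 fragments per library. Alb, a hepatocyte marker, was listed at 0 in all 17 libraries, and a listed 0 may be an estimate that failed, while the other 5 of 6 hepatocyte markers were detected. Regular diet replicate 1 stood apart from the other regular diet libraries for 12 interleukin genes, and values without it are given where leaving it out changed a call, and for some other genes. Of the 82 genes, 50 reached 10 normalized counts in at least 5 libraries and were tested, 26 lay below that filter and 6 were listed at 0 in every library. Il11 was just inside the filter, with 5 libraries at 10 or more, and Il17d just outside, with 4. Il11, Il12b, Il1r2 and Il1rl1 passed only through the CLDN1 mAb and vehicle groups, so for these a difference from regular diet was built into the filter. Il4, Il9r, Il23a and Il27 were under 10 in most regular diet libraries. They passed mainly through the CLDN1 mAb and vehicle groups and share this limit in part.

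Against regular diet, interleukin genes were mostly higher in vehicle livers. By limma, with p-values adjusted by Benjamini-Hochberg across the 18624 genes in the fit, 32 of the 50 tested members were higher in vehicle livers than in regular diet livers, 3 were lower (Il1rap, Il17rc and Il18) and 15 did not pass the threshold. Among all genes tested, 50.5% were called in that comparison, 29.8% as higher and 20.7% as lower. These shares also stand beside the counts by family below. The median log2 fold change was 1.58 over the tested members and 0.04 over all genes tested. For 22 members every vehicle library exceeded every regular diet library, set beside 19.1% of all genes, and for Il1rap alone every vehicle library was below every regular diet library, set beside 10.5%. Il11, Il12b, Il1r2 and Il1rl1 are among the 32, as are Il4, Il9r, Il23a and Il27. All but Il1rl1 and Il4 are among the 22, so part of both counts was built into the filter. In CLDN1 mAb livers against regular diet livers, 26 members were higher, 2 were lower (Il1rap and Il13ra1) and 22 did not pass, with a background of 24.8% higher and 14.1% lower, or 38.9% in all. The groups did not overlap for 23 members that were higher and for 1 that was lower, with backgrounds of 18.6% and 10.4%. Il12b, Il1r2, Il1rl1, Il9r, Il23a and Il27 are among the 26, and all of these but Il1rl1 and Il27 among the 23, with the same limit. The median log2 fold change of the tested members was 1.03 in that comparison. Both comparisons use the same 5 regular diet libraries, and a gene called in 1 of them is not shown to differ between CLDN1 mAb and vehicle livers. In bulk tissue, fewer cells of a type and less RNA per cell cannot be told apart.

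**Figure D1:**
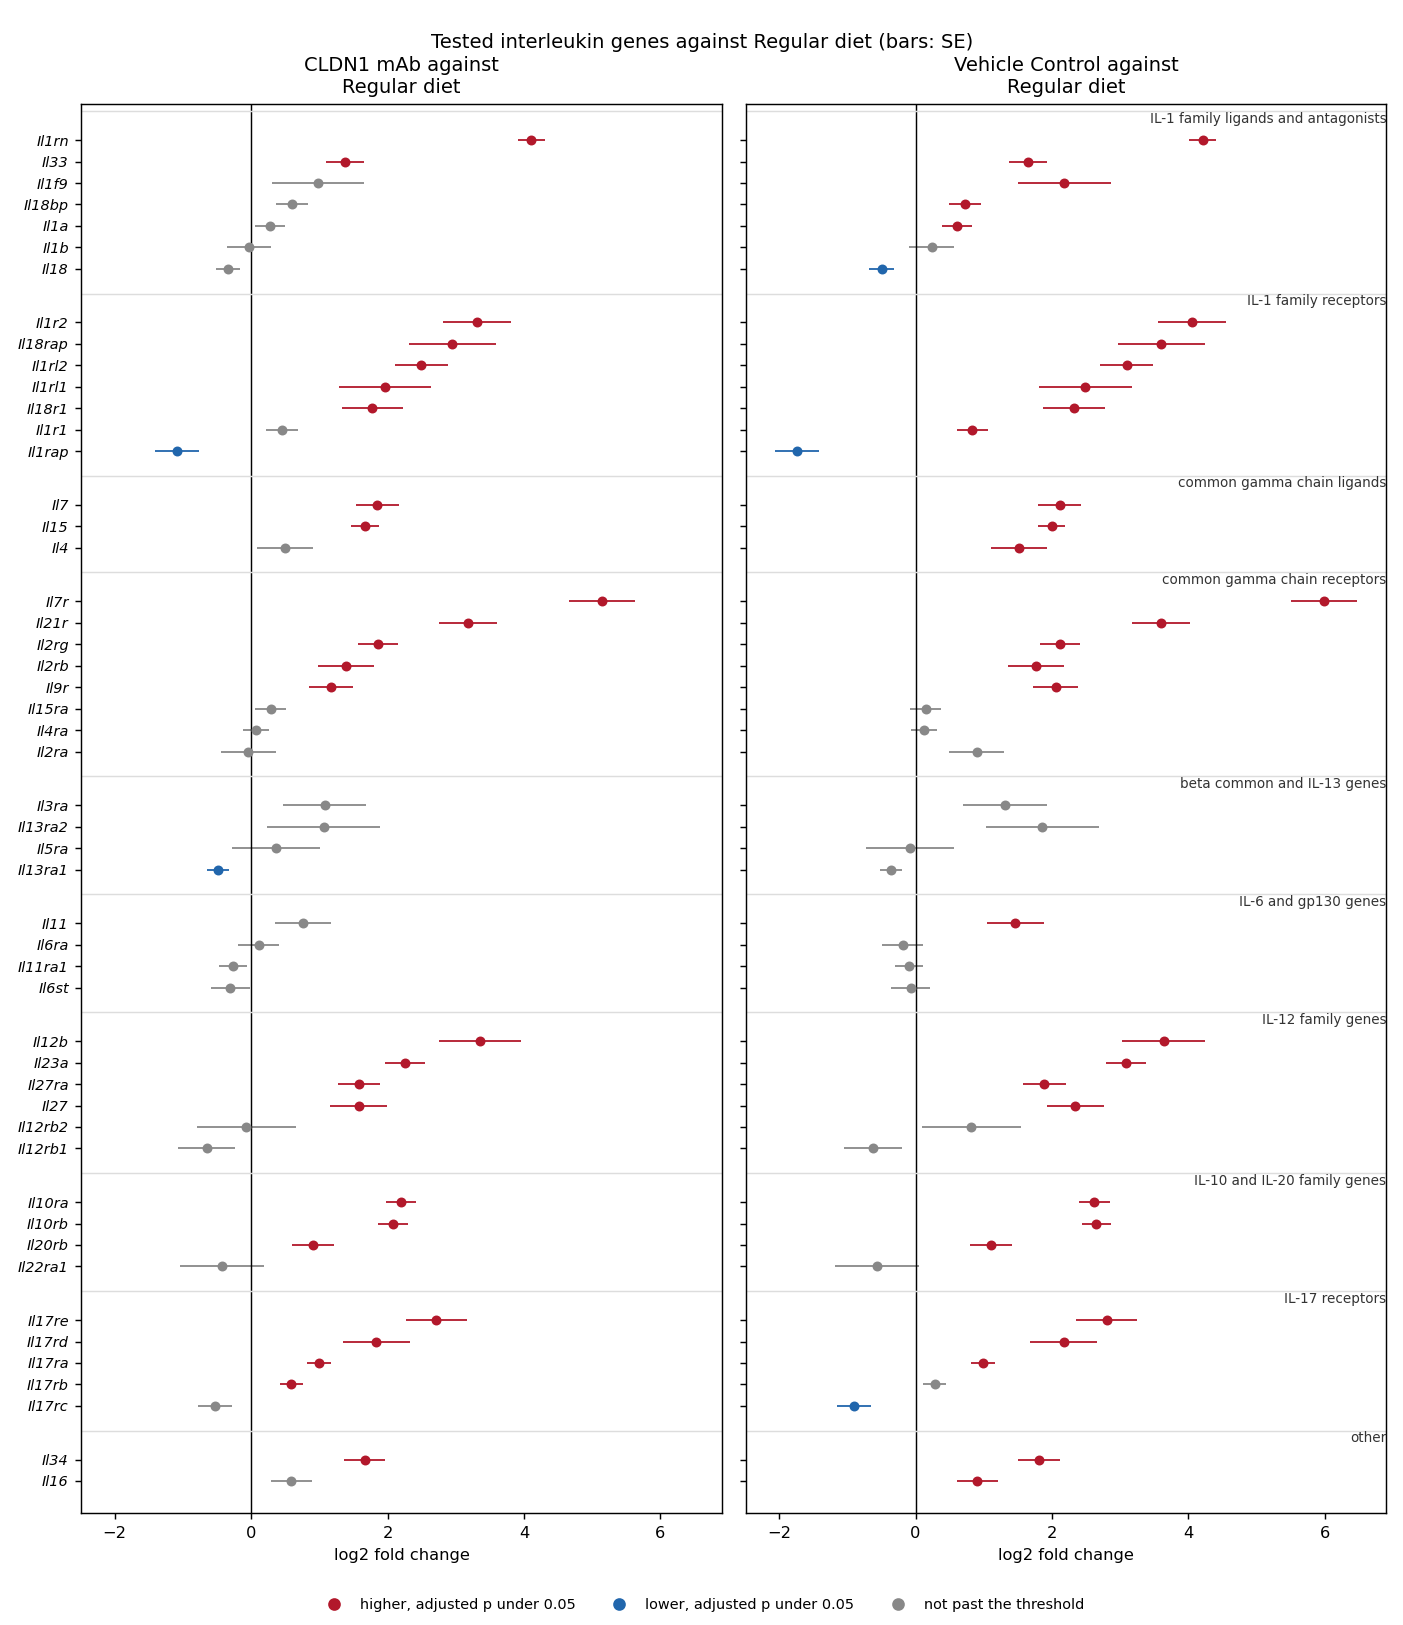
Log2 fold change (points) with its standard error (bars) for the 50 tested interleukin genes, by role class, in CLDN1 mAb against regular diet (left) and vehicle against regular diet (right). Il7r, Il1rn and Il1r2 lie farthest to the right in the vehicle panel, at 5.99, 4.21 and 4.05, and Il1rap lies farthest to the left at -1.74.

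The 3 largest increases in vehicle against regular diet livers were those of Il7r, Il1rn and Il1r2. Il7r encodes the receptor chain for IL-7 and, with CRLF2, for TSLP, and is known as a survival receptor of T cells (ENSMUSG00000003882, chr15:9505788-9530176, minus strand, in mm10). It had 395, 737 and 905 in CLDN1 mAb livers, 419.7, 1621 and 2617 in vehicle livers, and 7.37, 39.4, 15.8, 20.6 and 19.9 in regular diet livers, where groups of 6 are given here and below by their lowest, median and highest library. No regular diet library came near the CLDN1 mAb or vehicle range, and within the vehicle group replicates 3, 4 and 6 stood at 2468, 2617 and 2450.3 and the others at 792 or less. The log2 fold change was 5.99 ± 0.48 (SE, adjusted p = 2.57e-08, limma) in vehicle against regular diet and 5.14 ± 0.48 (adjusted p = 2.15e-07, limma) in CLDN1 mAb against regular diet.

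Il1rn encodes the IL-1 receptor antagonist, which occupies the IL-1 receptor without signalling (ENSMUSG00000026981, chr2:24336853-24351494, plus strand). Its lowest, median and highest values were 1093, 1540.0 and 2174 in CLDN1 mAb livers, 1253, 1648 and 1939 in vehicle livers, and 90.9, 77.4, 62.1, 88.1 and 136 in regular diet livers. The 12 libraries of the model were narrow in range and all lay far above the 5 regular diet libraries. The log2 fold change was 4.21 ± 0.20 (adjusted p = 8.89e-11, limma) in vehicle livers and 4.1 ± 0.20 (adjusted p = 1.79e-10, limma) in CLDN1 mAb livers, each against regular diet.

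Il1r2 encodes the decoy IL-1 receptor, which binds IL-1 and cannot signal (ENSMUSG00000026073, chr1:40074079-40125231, plus strand). It was a low gene, with 16.1, 19.8 and 39.8 in CLDN1 mAb livers, 22.2, 38.6 and 76.2 in vehicle livers, and 4.91, 1.31, 0, 0 and 4.58 in regular diet livers. In regular diet these values correspond to an estimated 0 to 3 fragments per library, so the fold change turns on the pseudocount of 1, and was 5.59 with a pseudocount of 0.1 and 2.04 with 10 in vehicle against regular diet. With 1 it was 4.05 ± 0.50 on the log2 scale (adjusted p = 2.93e-06, limma) for vehicle and 3.32 ± 0.50 (adjusted p = 3.82e-05, limma) for CLDN1 mAb, against regular diet.

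The largest decrease was that of Il1rap, the accessory chain that IL-1, IL-33 and IL-36 receptors share (ENSMUSG00000022514, chr16:26581704-26730117, plus strand). Its exons overlap Gm20319 on the other strand, and the strand setting of the counting was not given in the sources used here. Il1rap had 3410.1, 4442 and 5227 in CLDN1 mAb livers, 1329, 2857 and 6969 in vehicle livers, and 7797, 9642, 10155, 10016 and 9461 in regular diet livers. All 12 libraries of the model lay below all 5 regular diet libraries, and the 3 lowest vehicle values were those of replicates 3, 4 and 6. The log2 fold change was -1.74 ± 0.32 (adjusted p = 0.000209, limma) in vehicle livers and -1.08 ± 0.32 (adjusted p = 0.012, limma) in CLDN1 mAb livers. With every library scaled to the same total, or with quantile normalization, the CLDN1 mAb value no longer passed (adjusted p = 0.0693 and 0.0776, limma).

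Promoter windows of these 4 genes are printed because they had the largest changes in either direction. They are RefSeq sequences of build GRCm38.p6, each running from 250 bases before the annotated start to 50 bases after it, on the gene's strand, and capitals mark matches on either strand to AP-1 (TGANTCA), GAS (TTCNNNGAA), C/EBP (TTGCNNAA) or NF-kappaB (GGG, any 2 bases, TTTCC) letters. The Il7r window (chr15:9529827-9530126, minus strand) held a C/EBP match with its first base at -174 and a GAS match at -142 from the start. Il1rn has several annotated starts, and the upstream one (chr2:24336610-24336909, plus strand) held an AP-1 match at -141, whereas a downstream one (chr2:24345121-24345420, plus strand) held an NF-kappaB match at -51. The Il1r2 window (chr1:40085843-40086142, plus strand) held a GAS match at -111, and the Il1rap window (chr16:26581455-26581754, plus strand) held no match to these letters.
Il7r: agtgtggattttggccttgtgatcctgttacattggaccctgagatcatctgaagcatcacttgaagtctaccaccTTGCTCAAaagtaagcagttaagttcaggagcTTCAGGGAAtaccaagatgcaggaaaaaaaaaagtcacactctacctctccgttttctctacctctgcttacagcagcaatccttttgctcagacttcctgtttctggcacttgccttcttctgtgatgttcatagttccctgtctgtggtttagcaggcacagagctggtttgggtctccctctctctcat
Il1rn, upstream start: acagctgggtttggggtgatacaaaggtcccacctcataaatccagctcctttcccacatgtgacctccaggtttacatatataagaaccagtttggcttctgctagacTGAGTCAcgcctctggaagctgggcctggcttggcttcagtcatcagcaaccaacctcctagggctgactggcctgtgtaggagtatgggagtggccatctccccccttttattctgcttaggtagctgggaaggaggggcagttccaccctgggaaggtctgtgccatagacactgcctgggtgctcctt
Il1rn, downstream start: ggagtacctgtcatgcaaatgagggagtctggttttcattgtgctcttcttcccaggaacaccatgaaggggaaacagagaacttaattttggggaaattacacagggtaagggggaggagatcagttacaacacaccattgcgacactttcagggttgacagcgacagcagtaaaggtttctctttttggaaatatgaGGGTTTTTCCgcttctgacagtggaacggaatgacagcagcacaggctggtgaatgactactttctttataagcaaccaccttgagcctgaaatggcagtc
Il1r2: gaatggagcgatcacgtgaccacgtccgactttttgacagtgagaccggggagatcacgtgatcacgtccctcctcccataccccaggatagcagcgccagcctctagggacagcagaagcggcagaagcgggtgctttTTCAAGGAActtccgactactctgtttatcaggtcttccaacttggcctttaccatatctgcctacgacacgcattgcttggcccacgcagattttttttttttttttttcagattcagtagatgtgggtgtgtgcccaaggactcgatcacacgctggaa
Il1rap: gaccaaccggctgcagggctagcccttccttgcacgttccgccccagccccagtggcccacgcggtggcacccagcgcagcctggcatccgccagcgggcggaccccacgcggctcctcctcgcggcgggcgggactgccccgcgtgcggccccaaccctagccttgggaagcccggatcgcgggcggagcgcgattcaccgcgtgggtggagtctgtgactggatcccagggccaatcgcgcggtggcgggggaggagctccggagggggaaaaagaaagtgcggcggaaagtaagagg

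Windows were found for 65 of the 82 genes, 80 windows in all. AP-1 letters were in 17.5% of these windows and in 7.81% of all 32851 windows of the same length, GAS letters in 13.8% and 8.3%, C/EBP letters in 18.8% and 10.8%, and NF-kappaB letters in 8 of the 80 windows and in 1.63% of all. Members with the NF-kappaB letters were Il16, Il17rc, Il1rn, Il23r, Il4ra, Il6 and Il9. Windows of 1 gene can overlap, and the same Il1rn match was counted in 2 windows, so the 8 windows hold 7 members. None of the matches in the printed windows overlapped another. A match is a description of letters and not of a bound site.

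Among the IL-1 family ligands and antagonists, 7 of 12 genes were tested, and 5 were higher and 1 lower in vehicle livers than in regular diet livers. Beside Il1rn these were Il33, an alarmin held in nuclei of structural cells, Il1f9, which encodes IL-36 gamma, Il1a and Il18bp, the secreted binding protein of IL-18. Il33 had 207, 245 and 294 in CLDN1 mAb livers, 203, 318 and 441 in vehicle livers, and 41.8, 127, 119.9, 124 and 94.7 in regular diet livers. Both groups of the model lay above regular diet in every library, with a log2 fold change of 1.65 ± 0.28 (adjusted p = 8.54e-05, limma) in vehicle and 1.38 ± 0.28 (adjusted p = 0.000676, limma) in CLDN1 mAb livers. Il1b, the IL-1 ligand released by inflammasome-activated myeloid cells, had 182, 251 and 330.0 in CLDN1 mAb livers, 187, 285 and 431 in vehicle livers, and 299.7, 281, 87.5, 315 and 406 in regular diet livers. Its groups overlapped throughout, and the log2 fold changes of 0.24 ± 0.32 in vehicle and -0.03 ± 0.32 in CLDN1 mAb livers did not pass (adjusted p = 0.576 and 0.952, limma). With libraries scaled to the same total the vehicle difference was 0.86, just past the threshold (adjusted p = 0.049996, limma). Il1b shares exon sequence with its antisense gene Il1bos, whose reads cannot be told apart from it without strand.

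Il1f9 had 30.6, 40.1 and 43.5 in CLDN1 mAb livers, 36.7, 48.4 and 1413 in vehicle livers, and 14.7, 31.5, 18.4, 16.5 and 15.3 in regular diet livers. A single library, vehicle replicate 4, held the value of 1413, and the other 5 vehicle libraries held between 36.7 and 82.7. The log2 fold change in vehicle against regular diet was 2.18 ± 0.68 (adjusted p = 0.0123, limma) with that library and 1.38 ± 0.27 (adjusted p = 0.000556, limma) without it, and it was lost with quantile normalization (adjusted p = 0.0743). In CLDN1 mAb against regular diet it was 0.98 ± 0.68 and did not pass (adjusted p = 0.271, limma), but passed at adjusted p = 0.00676 once vehicle replicate 4 had left the shared estimate of spread.

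Il1a, the constitutive IL-1 ligand, had a small difference, 0.61 ± 0.22 in vehicle (adjusted p = 0.0311, limma) and 0.28 ± 0.22 in CLDN1 mAb livers (adjusted p = 0.352, limma). The vehicle call was lost without any 1 of regular diet replicates 3 and 4 and vehicle replicates 3, 4 and 6, with adjusted p between 0.0555 and 0.0736 (limma), and with quantile normalization (log2 fold change 0.01, adjusted p = 0.971). Il18, a cytokine that is made as an inactive precursor, had 399, 548 and 592 in CLDN1 mAb livers, 356, 447 and 628 in vehicle livers, and 1007, 621, 541, 569.7 and 619 in regular diet livers. The 3 groups overlapped, the lower libraries of both model groups lay below every regular diet library, and regular diet replicate 1 was the highest. Il18 was -0.49 ± 0.18 in vehicle against regular diet (adjusted p = 0.0312, limma) and -0.34 ± 0.18 in CLDN1 mAb against regular diet (adjusted p = 0.155, limma). The vehicle call did not hold without regular diet replicate 1 (log2 fold change -0.34, adjusted p = 0.0740) or without any 1 of vehicle replicates 3, 4, 5 and 6 (adjusted p from 0.0527 to 0.0747), and the sign turned to 0.13 when libraries were scaled to the same total. Il18bp rose by 0.72 ± 0.24 in vehicle livers (adjusted p = 0.0162, limma), a call lost without regular diet replicate 3 (adjusted p = 0.0575), and was 0.60 ± 0.24 in CLDN1 mAb livers (adjusted p = 0.0532, limma), which passed without regular diet replicate 1 (adjusted p = 0.00499). Exons of Il18bp overlap Numa1 on the other strand, so its counts are uncertain without strand.

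All 7 of the 9 IL-1 family receptor genes that were tested passed in vehicle against regular diet, 6 as higher and Il1rap as lower. In CLDN1 mAb livers 5 were higher, 1 was lower and Il1r1 did not pass. Il1r2 and Il1rl1 are among the higher genes in both counts, and for them a difference was built into the filter. Among all genes tested 29.8% were higher and 20.7% lower in vehicle livers, and 24.8% and 14.1% in CLDN1 mAb livers. Il1rl2, which encodes the IL-36 receptor, had 70.3, 128 and 191 in CLDN1 mAb livers, 99.4, 205 and 359 in vehicle livers, and 12.3, 35.4, 15.8, 23.4 and 24.4 in regular diet livers. Both groups of the model were above regular diet in every library, and the log2 fold change was 3.09 ± 0.39 (adjusted p = 4.38e-06, limma) in vehicle and 2.5 ± 0.39 (adjusted p = 6.32e-05, limma) in CLDN1 mAb livers. Il18rap and Il18r1 encode the 2 chains of the IL-18 receptor. Il18rap had 64.3, 80.5 and 118 in CLDN1 mAb livers, 81.9, 132 and 202 in vehicle livers, and 0, 36.7, 21.9, 11 and 12.2 in regular diet livers. The increase was 3.6 ± 0.64 in vehicle and 2.95 ± 0.64 in CLDN1 mAb livers (adjusted p = 0.000146 and 0.00127, limma). Without regular diet replicate 1, which was at 0, these became 2.75 and 2.10. Il18r1 had 57.4, 82.8 and 104 in CLDN1 mAb livers, 49.2, 129.6 and 258 in vehicle livers, and 12.3, 56.4, 13.1, 23.4 and 22.9 in regular diet livers. Regular diet replicate 2 reached into the lower part of the vehicle range, and the log2 fold change was 2.32 ± 0.45 in vehicle and 1.78 ± 0.45 in CLDN1 mAb livers (adjusted p = 0.000369 and 0.0046, limma).

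Il1r1, the signalling IL-1 receptor, had 1484, 2152 and 2514 in CLDN1 mAb livers, 1765, 2917 and 3241 in vehicle livers, and 796, 1637, 1805, 1359.6 and 2316 in regular diet livers. Of the vehicle libraries only replicate 2 lay below the highest regular diet library. The log2 fold change was 0.83 ± 0.23 in vehicle (adjusted p = 0.00605, limma) and 0.46 ± 0.23 in CLDN1 mAb livers, which did not pass (adjusted p = 0.132, limma) but passed without regular diet replicate 5 (adjusted p = 0.0473) and with libraries scaled to the same total (adjusted p = 0.0299). Il1rl1, which encodes the IL-33 receptor ST2, was at 21.3 ± 12.3 in CLDN1 mAb livers, 39.8 ± 31.8 in vehicle livers and 4.13 ± 1.85 in regular diet livers (mean ± SD, n = 6, 6 and 5). This gene exceeded regular diet by 2.49 ± 0.68 in vehicle and by 1.96 ± 0.68 in CLDN1 mAb livers (adjusted p = 0.00515 and 0.0288, limma). The CLDN1 mAb call of Il1rl1 was lost without any 1 of regular diet replicates 3 and 5 and CLDN1 mAb replicates 1, 4 and 5 (adjusted p from 0.050 to 0.0757). It was also lost with quantile normalization (log2 fold change 1.02, adjusted p = 0.180), with a pseudocount of 10 (1.06, adjusted p = 0.0584) and without the filter (adjusted p = 0.0566).

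The common gamma chain family controls survival and growth of lymphocytes. Of its 6 ligands 3 were tested, and Il7, Il15 and Il4 were all higher in vehicle livers. Il15, presented to T and NK cells on IL15RA, had 181, 229 and 272 in CLDN1 mAb livers, 173, 303 and 393 in vehicle livers, and 86, 64.3, 71.8, 74.3 and 64.2 in regular diet livers. All 12 libraries of the model lay above regular diet, by 1.99 ± 0.20 in vehicle (adjusted p = 3.55e-07, limma) and 1.67 ± 0.20 in CLDN1 mAb livers (adjusted p = 3.96e-06, limma). Il7, a survival factor of T cells made by stromal cells, had 35.8, 65 and 79.4 in CLDN1 mAb livers, 34.9, 80.1 and 115 in vehicle livers, and 19.7, 13.1, 11.4, 19.3 and 16.8 in regular diet livers. It too was separate from regular diet in every library, by 2.11 ± 0.32 and 1.85 ± 0.32 in vehicle and CLDN1 mAb livers (adjusted p = 2.57e-05 and 0.000141, limma). Il4, the T helper 2 cytokine, was low, at 8.9 ± 3.82 in CLDN1 mAb livers, 18.3 ± 5.61 in vehicle livers and 6.4 ± 3.85 in regular diet livers (mean ± SD, n = 6, 6 and 5). It was higher by 1.52 ± 0.41 in vehicle livers (adjusted p = 0.00515, limma), which did not hold with quantile normalization (adjusted p = 0.202), and was 0.49 ± 0.41 in CLDN1 mAb livers, which did not pass (adjusted p = 0.368, limma). Il4 reached the filter mainly through the model groups.

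All 8 common gamma chain receptor genes were tested, and beside Il7r the genes Il21r, Il2rg, Il2rb and Il9r were higher in both groups of the model. Il21r, the IL-21 receptor of lymphocytes, had 161, 206 and 279 in CLDN1 mAb livers, 185, 303 and 383 in vehicle livers, and 4.91, 53.8, 14.9, 38.5 and 33.6 in regular diet livers. Every library of the model exceeded the highest regular diet value, with a log2 fold change of 3.6 ± 0.43 in vehicle and 3.18 ± 0.43 in CLDN1 mAb livers (adjusted p = 2.04e-06 and 1.18e-05, limma). Il2rg, the common gamma chain itself, had 465, 616 and 919.6 in CLDN1 mAb livers, 427, 749 and 1147 in vehicle livers, and 248, 215, 84.9, 165 and 196 in regular diet livers. The groups were again separate, by 2.12 ± 0.29 and 1.86 ± 0.29 in vehicle and CLDN1 mAb livers (adjusted p = 9.60e-06 and 5.46e-05, limma). The exons of Il2rg overlap Gm20489 on the same strand, so its reads may be split between the 2 genes. Il2rb, shared by the IL-2 and IL-15 receptors, was at 206 ± 59.5 in CLDN1 mAb livers, 309.9 ± 176 in vehicle livers and 78.6 ± 29.5 in regular diet livers and higher by 1.76 ± 0.41 and 1.39 ± 0.41 in vehicle and CLDN1 mAb livers (adjusted p = 0.0016 and 0.0119, limma). Il9r, the IL-9 receptor, was at 20.1 ± 7.95 in CLDN1 mAb livers, 38.2 ± 14.4 in vehicle livers and 8.04 ± 1.9 in regular diet livers and higher by 2.05 ± 0.32 and 1.17 ± 0.32 in vehicle and CLDN1 mAb livers (adjusted p = 4.63e-05 and 0.00817, limma). The CLDN1 mAb calls of Il2rb and Il9r were lost with quantile normalization (adjusted p = 0.0976 and 0.218). Il9r reached the filter mainly through the model groups.

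In the same family Il15ra, Il4ra and Il2ra did not pass against regular diet. Il15ra was at 1827 ± 290.0 in CLDN1 mAb livers, 1701 ± 495 in vehicle livers and 1544 ± 482 in regular diet livers, and Il4ra, the signalling chain for IL-4 and IL-13, at 2503 ± 226 in CLDN1 mAb livers, 2706 ± 774 in vehicle livers and 2404 ± 455 in regular diet livers. Both were abundant in all 3 groups, and their ranges overlapped. With libraries scaled to the same total both passed in vehicle against regular diet, at 0.77 and 0.75 (adjusted p = 0.0129 and 0.0127, limma). Il15ra then also passed in CLDN1 mAb against regular diet, at 0.73 (adjusted p = 0.0243, limma). Il2ra, the alpha chain that marks regulatory and activated T cells, was at 23 ± 10.6 in CLDN1 mAb livers, 45.3 ± 22.9 in vehicle livers and 22.7 ± 8.27 in regular diet livers. Its difference of 0.90 ± 0.40 in vehicle against regular diet had an adjusted p of 0.0723 (limma) and passed only without vehicle replicate 2 (adjusted p = 0.0421) among the left-out libraries.

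**Figure D2:**
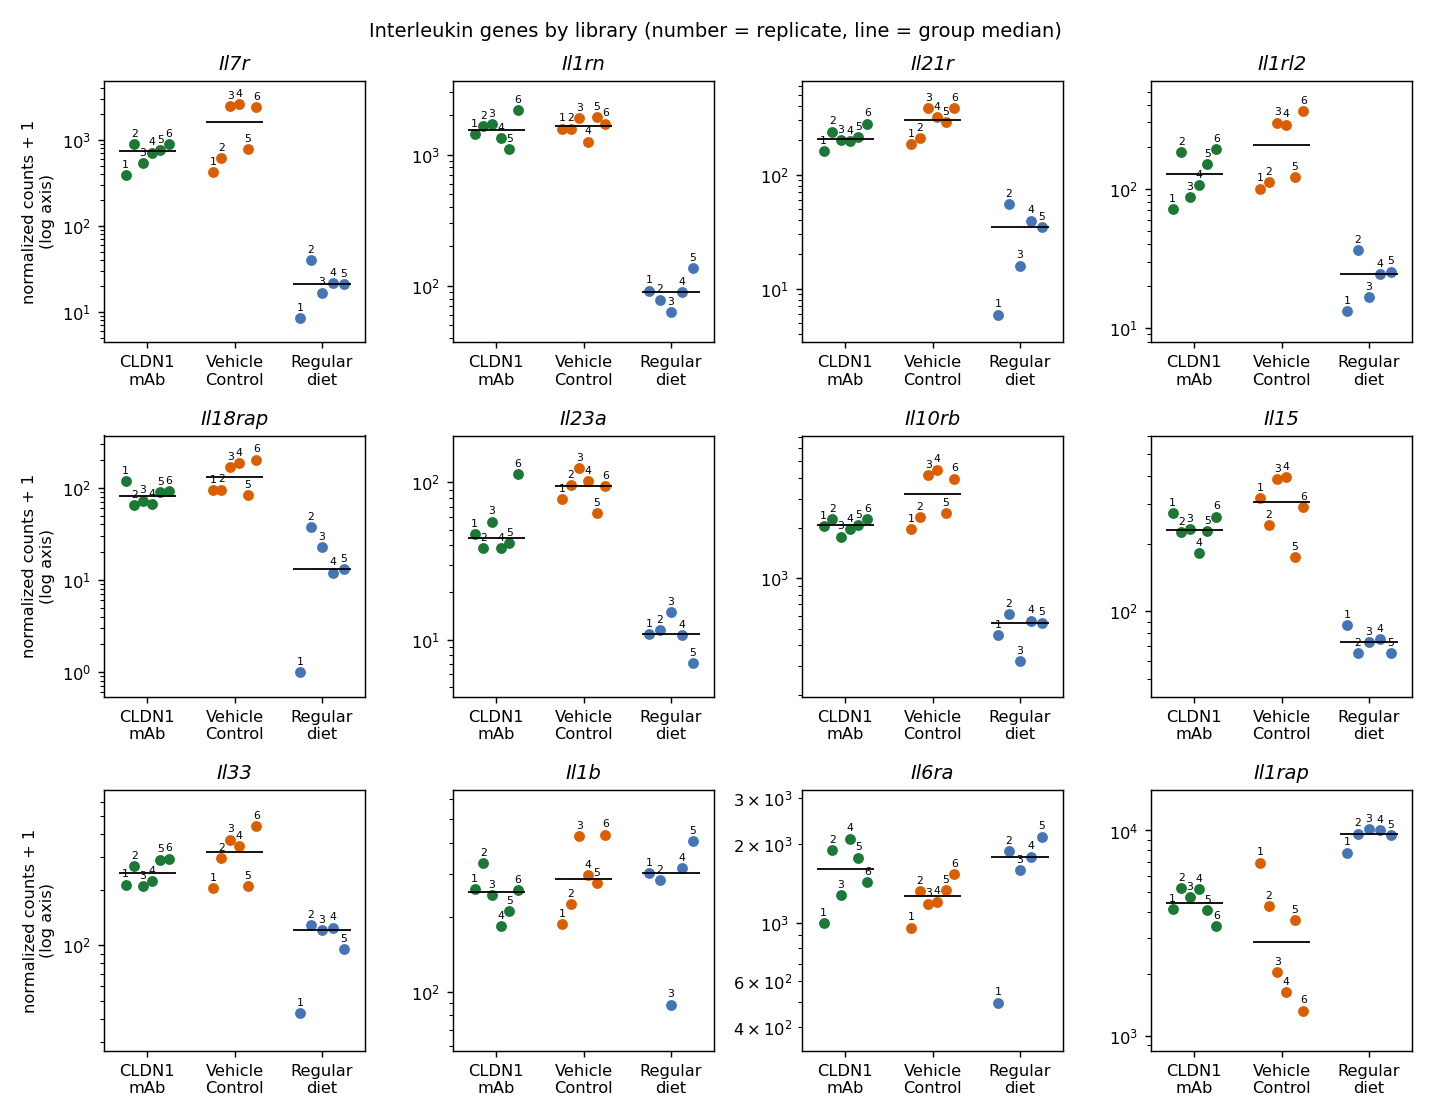
Normalized counts plus 1 on a log axis for 12 interleukin genes, with 1 point per library, its replicate number above it and a line at the group median, in CLDN1 mAb, vehicle and regular diet livers. Regular diet libraries lie below the model for Il7r, Il1rn, Il21r and Il15 and above it for Il1rap, while Il1b and Il6ra overlap, and vehicle replicates 3, 4 and 6 lie at the top of the vehicle group for Il7r and at its bottom for Il1rap.

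Of the IL-10 and IL-20 family, 4 of 11 genes were tested and 3 were higher in vehicle livers. IL10RA and IL10RB form the receptor for IL-10, which restrains macrophages, and IL10RB also serves IL-22 and the lambda interferons. Il10ra had 1130.0, 1208 and 1388 in CLDN1 mAb livers, 962, 1744 and 2468 in vehicle livers, and 260.4, 369, 191, 248 and 301 in regular diet livers. Il10rb had 1778, 2074 and 2269 in CLDN1 mAb livers, 1975, 3199 and 4467 in vehicle livers, and 459, 613, 318, 559 and 544 in regular diet livers. Both genes were separate from regular diet in all 12 libraries of the model. Il10ra was higher by 2.62 ± 0.22 and 2.2 ± 0.22 (adjusted p = 5.08e-08 and 5.77e-07, limma), and Il10rb by 2.65 ± 0.22 and 2.08 ± 0.22 (adjusted p = 2.81e-08 and 6.46e-07, limma), in vehicle and CLDN1 mAb livers. Gm21970 overlaps Il10rb on the same strand, so its count is uncertain. Il20rb, a chain of the IL-20 receptors, was at 74.9 ± 16.4 in CLDN1 mAb livers, 86.3 ± 19.2 in vehicle livers and 42.9 ± 18.6 in regular diet livers (mean ± SD, n = 6, 6 and 5). It was higher by 1.11 ± 0.31 and 0.91 ± 0.31 in vehicle and CLDN1 mAb livers (adjusted p = 0.00658 and 0.028, limma). The Il20rb calls did not hold with quantile normalization (adjusted p = 0.470 and 0.564), and the CLDN1 mAb call was also lost without regular diet replicate 1 or CLDN1 mAb replicate 1 or 3 (adjusted p from 0.0530 to 0.0588).

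Il22ra1, through which IL-22 acts on hepatocytes, had 26, 143 and 215 in CLDN1 mAb livers, 43.9, 118 and 143 in vehicle livers, and 22.1, 276, 207, 172 and 319 in regular diet livers. Regular diet replicate 1 was far below the other 4 regular diet libraries. With all libraries the difference in vehicle was -0.57 ± 0.62 (adjusted p = 0.468, limma), and without that library it was -1.24 ± 0.48 (adjusted p = 0.0350). In CLDN1 mAb livers it was -0.42 ± 0.62 with all libraries and -1.09 ± 0.48 without that library (adjusted p = 0.0673, limma).

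In the IL-12 family 6 of 8 genes were tested, and Il12b, Il23a, Il27 and Il27ra were higher in both groups of the model. Of these, Il12b reached the filter only, and Il23a and Il27 mainly, through the model groups. Il23a encodes the subunit that makes IL-23 with the IL12B chain. It had 37, 43 and 112 in CLDN1 mAb livers, 62.7, 94 and 122 in vehicle livers, and 9.83, 10.5, 14, 9.63 and 6.11 in regular diet livers. All 12 libraries of the model exceeded regular diet, and within the CLDN1 mAb group replicate 6 was at 112 and the others at 55.3 or less. The log2 fold change was 3.08 ± 0.30 in vehicle and 2.25 ± 0.30 in CLDN1 mAb livers (adjusted p = 1.87e-07 and 9.44e-06, limma). Il12b, the chain shared by IL-12 and IL-23, was at 20.7 ± 11.4 in CLDN1 mAb livers, 26.1 ± 17.5 in vehicle livers and 0.988 ± 1.14 in regular diet livers, with an estimated 0 to 2 fragments per regular diet library. It was higher by 3.64 ± 0.60 and 3.36 ± 0.60 in vehicle and CLDN1 mAb livers (adjusted p = 7.80e-05 and 0.000244, limma). Il27ra, the receptor chain for IL-27, had 144, 203 and 279 in CLDN1 mAb livers, 118, 283 and 396 in vehicle livers, and 90.9, 81.4, 56, 75.7 and 41.2 in regular diet livers. No library of the model overlapped regular diet, and the differences were 1.89 ± 0.31 and 1.58 ± 0.31 in vehicle and CLDN1 mAb livers (adjusted p = 6.70e-05 and 0.000531, limma). Its exons overlap Palm3 on the other strand, those of Il27 overlap Apobr and those of Il12rb2 overlap Serbp1. Il27, a subunit of IL-27, was higher by 2.34 ± 0.42 and 1.58 ± 0.42 in vehicle and CLDN1 mAb livers (adjusted p = 0.000151 and 0.00586, limma), the CLDN1 mAb call being lost with quantile normalization (adjusted p = 0.0902). Il12rb1 and Il12rb2, the IL-12 receptor chains, did not pass, at -0.62 ± 0.42 and 0.82 ± 0.72 in vehicle against regular diet (adjusted p = 0.231 and 0.368, limma). Regular diet replicate 1 held 2.46 for Il12rb2, the other regular diet libraries 66.1 or more, and without it the vehicle difference was -0.12. The CLDN1 mAb difference of Il12rb2 was -0.07 with that library and -1.0 without it (adjusted p = 0.0657, limma).

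IL-17 signalling joins IL17RA with a partner chain for each ligand. Il17re, the partner for IL-17C on epithelia, had 100.1, 154 and 417 in CLDN1 mAb livers, 51.4, 247 and 308 in vehicle livers, and 19.7, 31.5, 21, 24.8 and 27.5 in regular diet livers. The groups of the model were above regular diet in every library, by 2.8 ± 0.44 and 2.71 ± 0.44 in vehicle and CLDN1 mAb livers (adjusted p = 4.86e-05 and 9.51e-05, limma). Il17rd, also known as SEF, a regulator of growth factor signalling, had 79.9, 113 and 236 in CLDN1 mAb livers, 64.3, 188 and 337 in vehicle livers, and 9.83, 63, 46.4, 52.3 and 35.1 in regular diet livers. Its increase was 2.17 ± 0.49 and 1.84 ± 0.49 in vehicle and CLDN1 mAb livers (adjusted p = 0.00122 and 0.00613, limma), again with no overlap. Il17ra had 1251, 1693 and 1874 in CLDN1 mAb livers, 1471, 1621 and 1767 in vehicle livers, and 467, 1012, 831, 937 and 991 in regular diet livers. Its smaller difference, 0.99 ± 0.17 and 0.99 ± 0.17 in vehicle and CLDN1 mAb livers (adjusted p = 0.000144 and 0.000194, limma), also left no overlap with regular diet.

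Il17rc, the partner for IL-17A and IL-17F, ran the other way, with 875, 1189 and 1323 in CLDN1 mAb livers, 461, 926 and 1392 in vehicle livers, and 2835, 1341, 1301, 1389.9 and 1462 in regular diet livers. Regular diet replicate 1 stood far above the other regular diet libraries, and the highest library of each model group overlapped regular diet. Il17rc was -0.90 ± 0.25 in vehicle (adjusted p = 0.00636, limma) and -0.53 ± 0.25 in CLDN1 mAb livers (adjusted p = 0.11, limma). The vehicle call was lost with libraries scaled to the same total (adjusted p = 0.375). Il17rb, the IL-25 receptor, was at 838 ± 88.9 in CLDN1 mAb livers, 692 ± 169 in vehicle livers and 563 ± 104 in regular diet livers. It passed in CLDN1 mAb against regular diet, at 0.59 ± 0.17 (adjusted p = 0.0101, limma), with no overlap, but not with quantile normalization (adjusted p = 0.131), and did not pass in vehicle, at 0.28 ± 0.17 (adjusted p = 0.172, limma). With libraries scaled to the same total the vehicle difference passed, at 0.91 (adjusted p = 4.69e-05, limma). Exons of Il17rb overlap Actr8 on the other strand.

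The receptors of IL-6 and IL-13, which hepatocytes carry, were abundant and had small differences between groups. Il6st, the shared chain gp130, had 4222, 6917 and 8034 in CLDN1 mAb livers, 4833, 7064 and 12383 in vehicle livers, and 3732, 9673, 7566, 9369 and 9407 in regular diet livers. Il6ra, which binds IL-6, had 997, 1602 and 2095 in CLDN1 mAb livers, 959.7, 1265 and 1535 in vehicle livers, and 496, 1881, 1591, 1789 and 2134 in regular diet livers. Neither passed in either comparison with regular diet, and regular diet replicate 1 was the lowest of its group for both. Without that library Il6ra was -0.56 in vehicle against regular diet (adjusted p = 0.0156, limma), against -0.18 ± 0.30 with it (adjusted p = 0.638). Il13ra1, the signalling IL-13 receptor, had 1465, 1841 and 2036 in CLDN1 mAb livers, 1470.2, 1972 and 2388 in vehicle livers, and 1752, 2959, 2041, 2851 and 3020.2 in regular diet livers. It was -0.48 ± 0.17 in CLDN1 mAb livers (adjusted p = 0.0276, limma) and -0.36 ± 0.17 in vehicle livers (adjusted p = 0.081, limma). The CLDN1 mAb call was lost without any 1 of regular diet replicates 2, 4 and 5 and CLDN1 mAb replicates 1 and 3 (adjusted p from 0.0597 to 0.0808), with libraries scaled to the same total (-0.04, adjusted p = 0.908) and with quantile normalization (-0.32, adjusted p = 0.145), and the vehicle difference passed without regular diet replicate 1 (-0.48, adjusted p = 0.0115). Il11ra1, the IL-11 receptor chain, was at 1038 ± 52.2 in CLDN1 mAb livers, 1205 ± 300.4 in vehicle livers and 1299 ± 445 in regular diet livers, and its near-identical copy Il11ra2 was listed at 0 in every library, so the counts of this pair are uncertain.

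Il11, a gp130 ligand studied in liver fibrosis, was low, with 1.24, 5.18 and 15.3 in CLDN1 mAb livers, 6.72, 9.96 and 12.9 in vehicle livers, and 2.46, 2.62, 3.5, 2.75 and 3.06 in regular diet livers. It was higher in vehicle livers by 1.46 ± 0.41 (adjusted p = 0.00698, limma), with no overlap, but not with quantile normalization (adjusted p = 0.712). In CLDN1 mAb livers it was 0.76 ± 0.41 and did not pass (adjusted p = 0.158, limma), except without CLDN1 mAb replicate 2 (adjusted p = 0.0271). None of the 4 tested genes among the beta common and IL-13 chains passed in vehicle against regular diet. Il13ra2, a decoy receptor for IL-13, had 4.61, 38.3 and 60.9 in CLDN1 mAb livers, 8.06, 67.9 and 240.0 in vehicle livers, and 19.7, 3.94, 40.3, 8.26 and 13.7 in regular diet livers. The vehicle group spread from below the median of regular diet to far above its range, and the difference of 1.86 ± 0.83 had an adjusted p of 0.0709 (limma), which passed without regular diet replicate 3, vehicle replicate 1 or vehicle replicate 2 (adjusted p from 0.0188 to 0.0434). Il3ra, the IL-3 receptor alpha chain, was at 1.31 ± 0.61 (adjusted p = 0.0859, limma), and passed at 1.81 without regular diet replicate 1 and at 1.80 without vehicle replicate 1 (adjusted p = 0.0129 and 0.00726). In CLDN1 mAb livers Il3ra was 1.08 ± 0.61 (adjusted p = 0.18, limma) and passed at 1.58 without regular diet replicate 1 (adjusted p = 0.0315). Il5ra, the IL-5 receptor of eosinophils, stayed at or below 18.5 in every library. Without regular diet replicate 1, which was at 0, Il5ra was -0.36 in CLDN1 mAb and -0.81 in vehicle livers against regular diet, where it was 0.36 and -0.08 with all libraries, and none of these passed.

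Il34, the second ligand of the macrophage receptor CSF1R, had 257, 304 and 536 in CLDN1 mAb livers, 153, 398 and 542 in vehicle livers, and 177, 118, 62.1, 93.6 and 88.6 in regular diet livers. One vehicle library, replicate 1, lay within the regular diet range and the other 5 lay above it. Il34 was higher by 1.81 ± 0.30 and 1.66 ± 0.30 in vehicle and CLDN1 mAb livers (adjusted p = 8.84e-05 and 0.000284, limma). Il16, a chemoattractant for CD4 T cells, had 269.7, 379.6 and 476 in CLDN1 mAb livers, 209, 498 and 783 in vehicle livers, and 327, 289, 168, 241 and 215 in regular diet livers. It was higher in vehicle by 0.91 ± 0.30 (adjusted p = 0.0176, limma), a call lost without regular diet replicate 3 (adjusted p = 0.0535) and with quantile normalization (0.43, adjusted p = 0.174), and did not pass in CLDN1 mAb livers, at 0.59 ± 0.30 (adjusted p = 0.133, limma). Exons of Stard5 and 2310044K18Rik overlap Il16 on the other strand.

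Most of the untested genes were ligands, 23 of the 37 in all. None of the 6 IL-17 family ligands reached the filter, although 5 of 5 IL-17 receptor genes did. Il17a was at most 2.46 normalized counts in any library, with 0 in all CLDN1 mAb and regular diet libraries, and Il17f was at 9.26 or less in all libraries. Il6 was at 3.79 ± 3.49 in CLDN1 mAb livers, 7.05 ± 5.16 in vehicle livers and 3.0 ± 2.19 in regular diet livers, and Il10 at 4.47 ± 1.77 in CLDN1 mAb livers, 6.96 ± 4.12 in vehicle livers and 0.888 ± 0.828 in regular diet livers (mean ± SD, n = 6, 6 and 5). Il11ra2, Il17b, Il1f10, Il20, Il22 and Il3 were listed at 0 in all 17 libraries. Of the 32 untested genes, 25 were under 10 normalized counts everywhere. The highest value among the untested genes was 35.2, for Il1f5, the IL-36 receptor antagonist, in vehicle replicate 3, and this gene was at 0 in the other 5 vehicle libraries and all regular diet libraries. In that library Il1f8, which encodes IL-36 beta, was at 6.21, against 0 in the other 16 libraries.

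Levels between genes were compared per kilobase of exon. In vehicle livers the order was led by Il10rb at 844 normalized counts per kilobase (mean of 6), Il6st at 679.9, Il13ra1 at 524 and Il10ra at 500.03. CLDN1 mAb livers had Il6st at 569, Il10rb at 544, Il18 at 506 and Il13ra1 at 479. Regular diet livers had Il1rap first at 829, followed by Il6st at 716, Il13ra1 at 680.1, Il18 at 651 and Il17rc at 624. Il10rb stood at rank 2 in CLDN1 mAb, 1 in vehicle and 14 in regular diet livers, and Il7r at rank 19, 11 and 38. Neighbours in these orders were not tested against each other.

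Log2 ratios of value + 1 within a library were compared for 6 pairs of an antagonist, decoy or partner chain with its counterpart. The scaling of a library cancels in such a ratio except for genes with low values, where the pseudocount counts. They are ratios of normalized counts, not of counts per length, so only their differences between groups are read. Of 18 two-sided exact permutation tests, 8 passed after Benjamini-Hochberg adjustment, all of them against regular diet, and 2 of these 8, of Il1r2 over Il1r1, are not read because Il1r2 was near 0 in regular diet. The smallest p that 6 against 5 libraries allows is 0.00433, and 6 against 6 allows 0.00216.

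The log2 ratio of the antagonist Il1rn to Il1b was 2.65 ± 0.31 in CLDN1 mAb livers, 2.48 ± 0.46 in vehicle livers and -1.49 ± 0.57 in regular diet livers (SD, n = 6, 6 and 5). The log2 ratio was below 0 in all 5 regular diet libraries and above 0 in all 12 libraries of the model. The differences were 3.97 in vehicle and 4.14 in CLDN1 mAb against regular diet (exact permutation, adjusted p = 0.0156 each). The decoy Il1r2 against the signalling receptor Il1r1 had a log2 ratio of -6.43 ± 0.62 in CLDN1 mAb livers, -6.07 ± 0.59 in vehicle livers and -9.29 ± 1.49 in regular diet livers. With an estimated 0 to 3 fragments of Il1r2 per regular diet library, the regular diet ratio is set by the pseudocount, and its difference from the model is not read. Il18bp against Il18 was at 1.04 ± 0.35, 1.32 ± 0.38 and 0.11 ± 0.36 in CLDN1 mAb, vehicle and regular diet livers. Its differences of 1.22 in vehicle and 0.93 in CLDN1 mAb against regular diet both passed (exact permutation, adjusted p = 0.0156 each). The overlap of Il18bp with Numa1 on the other strand is a limit of this ratio too.

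Il15 against Il15ra was at -2.96 ± 0.43 in CLDN1 mAb livers, -2.5 ± 0.75 in vehicle livers and -4.35 ± 0.65 in regular diet livers. It was higher by 1.85 in vehicle and 1.38 in CLDN1 mAb livers (exact permutation, adjusted p = 0.0195 each). The decoy Il13ra2 against Il13ra1 differed from regular diet by 2.22 in vehicle and 1.55 in CLDN1 mAb livers, and neither passed (exact permutation, adjusted p = 0.0850 and 0.104). Il6ra against its signalling chain Il6st was at -2.0 ± 0.31 in CLDN1 mAb livers, -2.52 ± 0.40 in vehicle livers and -2.41 ± 0.30 in regular diet livers. The difference of 0.52 between CLDN1 mAb and vehicle had an exact permutation p of 0.0368 and an adjusted p of 0.0736, and passed without vehicle replicate 2 or without CLDN1 mAb replicate 6 (adjusted p = 0.0317 and 0.0312).

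**Figure D3:**
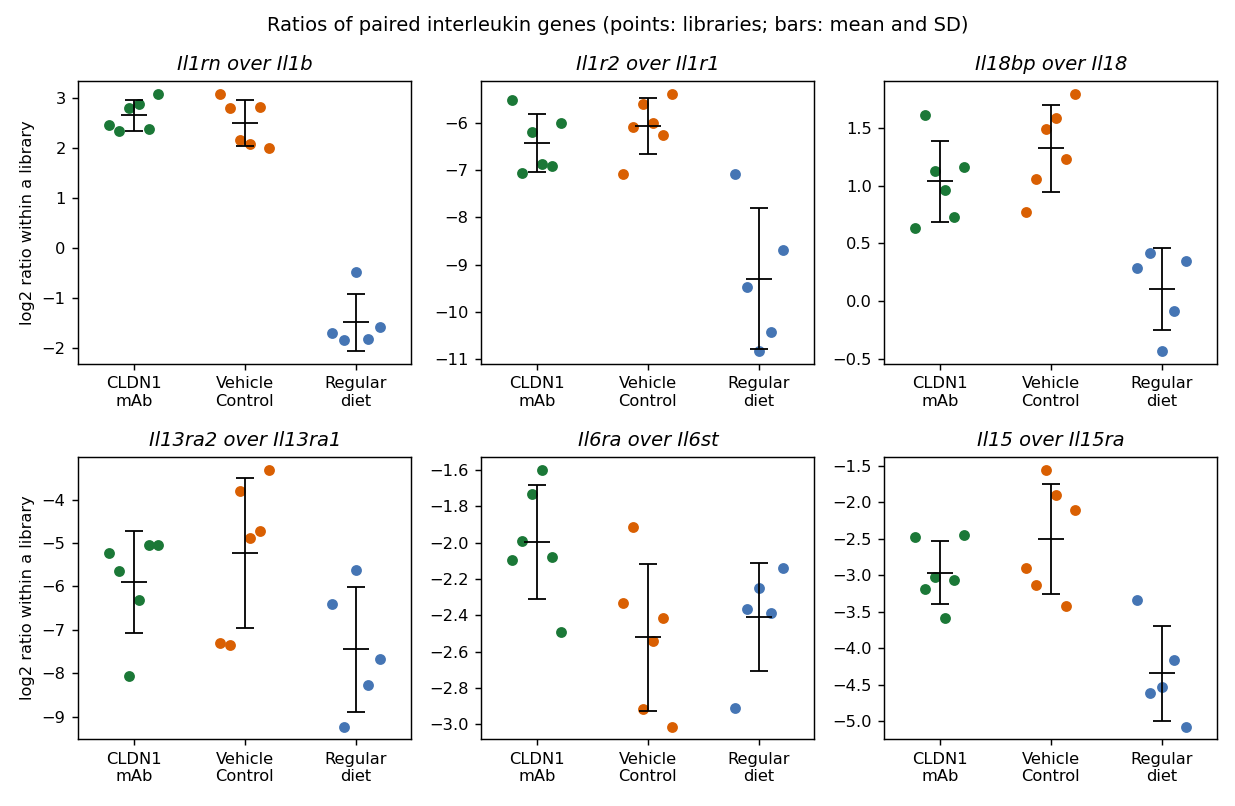
Log2 ratio of 2 interleukin genes within each library (points), with the group mean and SD (bars), for 6 pairs in CLDN1 mAb, vehicle and regular diet livers. Il1rn over Il1b lies between 1.99 and 3.07 in the 12 libraries of the model and between -1.85 and -0.49 in regular diet, and Il6ra over Il6st overlaps in all 3 groups.

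Between CLDN1 mAb and vehicle livers no interleukin gene passed. By limma 0 of 50 members were called, as were 0 of all 18624 genes (0.0%), and the smallest adjusted p among members was 0.659. Unadjusted p was under 0.05 for 6 members, 1 higher and 5 lower, set beside 7.47% of all genes. For 41 of 50 members the log2 fold change was below 0, against 55.7% of all genes, and the median was -0.29 over members and -0.05 over all genes. No member had groups that did not overlap, and 0.322% of all genes did.

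Il23a had the smallest unadjusted p among the lower members, with 45.9, 37.1, 55.3, 37, 40.2 and 112 in CLDN1 mAb livers and 77.2, 94.9, 122, 100.4, 62.7 and 93.1 in vehicle livers. Without CLDN1 mAb replicate 6 the other 5 CLDN1 mAb libraries were all below the lowest vehicle library. Its log2 fold change was -0.83 ± 0.28 (unadjusted p = 0.00897, limma, adjusted p = 0.659). Il9r had 18.3, 19.8, 21.5, 11.1, 34.5 and 15.2 in CLDN1 mAb livers and 19.9, 25.1, 51.7, 55.4, 33.4 and 43.8 in vehicle livers. Il10rb had 2057, 2265, 1778, 1967, 2091 and 2269 in CLDN1 mAb livers and 1975, 2326, 4129, 4467, 2451 and 3946 in vehicle livers. For Il10rb the CLDN1 mAb values lay at or below the lower part of the vehicle range. So did those of Il9r except 34.5, which exceeded the vehicle values of 19.9, 25.1 and 33.4. The log2 fold change was -0.88 ± 0.31 for Il9r and -0.57 ± 0.21 for Il10rb (adjusted p = 0.659 each, limma).

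Il4 had 9.17, 14.8, 3.07, 9.26, 9.85 and 7.22 in CLDN1 mAb livers and 21, 10.7, 15.5, 27.1, 15.9 and 19.7 in vehicle livers. Il2ra had 9.17, 24.7, 13.1, 22.2, 36.1 and 32.9 in CLDN1 mAb livers and 30.4, 23.3, 46.6, 65.3, 26.7 and 79.4 in vehicle livers. Each group overlapped the other, and the log2 fold changes were -1.02 ± 0.39 and -0.94 ± 0.39 (adjusted p = 0.659 each, limma). Among the members with higher values in CLDN1 mAb livers, Il1rap had the smallest p, with 4156, 5227, 4728, 5189, 4096 and 3410.1 in CLDN1 mAb livers and 6969, 4295, 2051, 1631, 3663 and 1329 in vehicle livers. The CLDN1 mAb values lay within the vehicle range, which ran from 1329 to 6969. Its log2 fold change was 0.66 ± 0.31 (unadjusted p = 0.046, adjusted p = 0.659, limma). The next in that direction were Il17rb at 0.30 ± 0.16, Il17rc at 0.37 ± 0.24, Il6ra at 0.30 ± 0.29 and Il18 at 0.16 ± 0.17, none with an unadjusted p under 0.05. A p that misses the threshold does not show that the groups were alike.

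**Figure D4:**
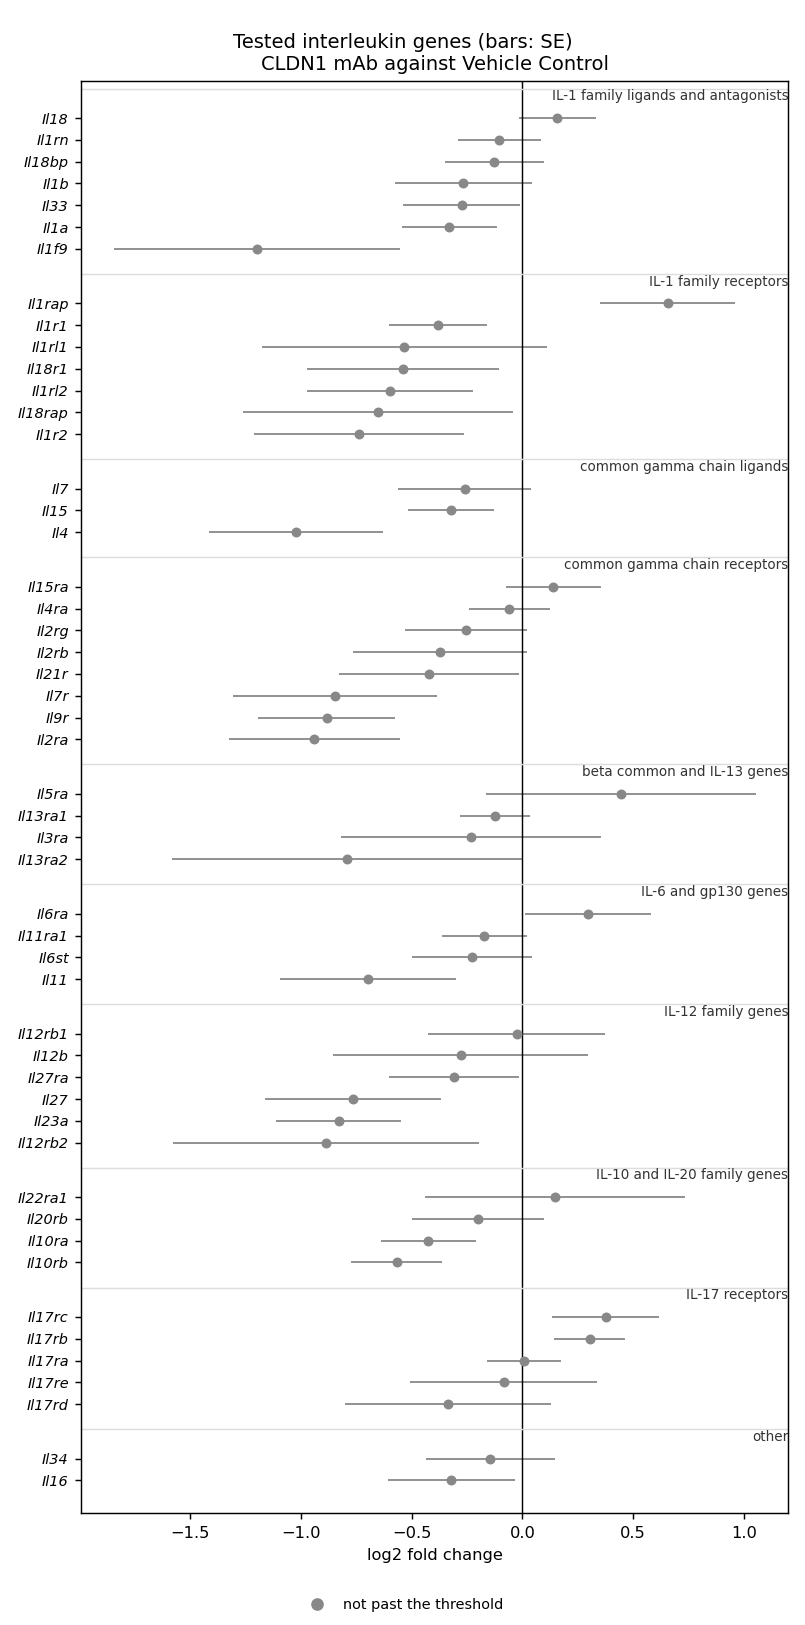
Log2 fold change (points) with its standard error (bars) of CLDN1 mAb against vehicle for the 50 tested interleukin genes, by role class. Most points, 41 of 50, lie left of 0, and none passed the threshold.

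Within the vehicle group the same libraries were high for many interleukin genes. Vehicle replicates 3, 4 and 6 were the 3 highest vehicle libraries for 30 of 50 members (60.0%), against 27.1% of all genes tested. They were the 3 lowest for 3 members, Il15ra, Il17rb and Il1rap (6.0%), against 19.4% of all genes. These libraries also had the lowest summed hepatocyte markers of the vehicle group, 370930, 358865 and 233403 normalized counts, against 824202, 997351 and 758223 in replicates 1, 2 and 5, and the part of this in the interleukin values was not tested. When limma was allowed to weight libraries by their fit, 2 members passed as higher in CLDN1 mAb livers (Il1rap and Il17rb) and 18 as lower, with 28.5% of all genes called, 13.5% as higher and 15.0% as lower. That fit gave vehicle replicates 1, 2 and 5 weights of 0.175, 0.383 and 0.785, and replicates 3, 4 and 6 weights of 1.82, 1.88 and 1.34.

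Library codes of the CLDN1 mAb and vehicle libraries lie in 2 sets, 25 to 30 and 36 to 42, each with 3 libraries of either group. The 5 regular diet libraries hold codes 31 to 35, so code and group cannot be told apart in any comparison with regular diet. With the set as a term in the limma fit, 0 members passed and 11 of 50 had an unadjusted p under 0.05, against 12.1% of all genes tested. In codes 25 to 30 alone 35 of 50 members were below 0, with a median of -0.17, against -0.03 over all genes. Unadjusted p (limma) was under 0.05 for 1 of 50 members and for 353 of 18624 genes (1.9%). In codes 36 to 42 alone 40 of 50 were below 0, with a median of -0.43, against -0.03 over all genes. There unadjusted p was under 0.05 for 16 of 50 members and for 2978 of 18624 genes (16.0%). The share of all genes below 0 was not counted within either set, and 0 members passed in either.

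Other genes of interleukin signalling were read from the same limma fit, where the shares of all genes were 29.8% higher and 20.7% lower in vehicle livers, and 24.8% and 14.1% in CLDN1 mAb livers, against regular diet. Of 22 JAK, STAT and SOCS genes, all tested, 9 were higher and 2 lower in vehicle against regular diet. In CLDN1 mAb against regular diet 5 were higher and 1 lower, which is no more than the shares of all genes. In vehicle livers the higher calls were above the share of all genes and the lower calls below it. Stat4, which relays IL-12, was higher by 3.01 ± 0.32 and 2.66 ± 0.32 in vehicle and CLDN1 mAb livers (adjusted p = 5.15e-07 and 3.06e-06). Socs3, the feedback inhibitor of gp130 signalling, was higher by 1.42 ± 0.25 and 1.01 ± 0.25 in vehicle and CLDN1 mAb livers, and Ptpn6, a phosphatase of leukocytes, by 1.1 ± 0.17 and 0.84 ± 0.17. Stat5b, which carries growth hormone signals in hepatocytes, fell by 1.02 and 0.97 in vehicle and CLDN1 mAb livers (adjusted p = 0.000165 and 0.00039).

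Of 19 genes of IL-1 processing and signalling 9 were higher and 3 lower in vehicle livers, and 8 and 4 in CLDN1 mAb livers. The inflammasome proteases Casp1 and Casp4 were higher by 2.57 ± 0.24 and 3.47 ± 0.32 in vehicle, and the adaptor Pycard by 3.18 ± 0.29 (adjusted p = 1.11e-07, 1.29e-07 and 1.24e-07, limma). Tirap, an adaptor of Toll-like receptors, was -0.93 ± 0.18. Of 27 related chains and cytokines with other symbols 23 were tested, and 17 were higher and 1 lower in vehicle livers, and 16 and 1 in CLDN1 mAb livers. The gp130 ligands Lif and Clcf1 were higher by 4.7 ± 0.36 and 4.17 ± 0.25, and Ifnlr1, the partner of IL10RB for lambda interferons, by 4.2 ± 0.37 (adjusted p = 1.62e-08, 1.05e-09 and 8.22e-08, limma). Lifr, which pairs with gp130, was -2.0 ± 0.25 (adjusted p = 4.28e-06, limma).

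Among 9 transcription factors of T helper and innate lymphoid programmes, 5 were higher and 3 lower in vehicle livers, and 4 and 1 in CLDN1 mAb livers. Eomes, Tbx21 and Foxp3, factors of cytotoxic, T helper 1 and regulatory T cells, were higher by 2.43 ± 0.42, 1.79 ± 0.35 and 1.64 ± 0.34 in vehicle. No gene of the 4 lists passed between CLDN1 mAb and vehicle livers.

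Markers of several leukocyte types, bile duct cells and fibroblasts were higher in the model than in regular diet, as many interleukin genes were. The shares of all genes were 29.8% higher and 20.7% lower in vehicle livers, and 24.8% and 14.1% in CLDN1 mAb livers. Of 6 T cell markers 5 were higher in each group of the model than in regular diet, and their sum ranged from 533 to 1563 in CLDN1 mAb livers, 632 to 1509.9 in vehicle livers and 184 to 612 in regular diet livers. All 4 NK cell markers were higher, with sums of 229.7 to 332, 221 to 718 and 24.6 to 106. Of 4 macrophage markers 3 were higher, with sums of 59442 to 106971 in CLDN1 mAb livers, 41889 to 119302 in vehicle livers and 4209 to 15158 in regular diet livers. All 5 cholangiocyte markers and 4 of 6 stellate and fibroblast markers were higher in both groups of the model. Of the 5 hepatocyte markers other than Alb, 3 were lower in CLDN1 mAb and 5 in vehicle livers, with sums of 601999 to 1134639, 233403 to 997351 and 1322603 to 3350076. Of the other leukocyte lists, all 3 monocyte markers, 3 of 4 dendritic cell markers and 3 of 4 eosinophil markers were higher in both groups of the model, and neutrophil markers in 2 of 5 in CLDN1 mAb and 3 of 5 in vehicle livers. Of 4 Kupffer cell markers 4 were lower in CLDN1 mAb and 3 in vehicle livers. None of the 3 B cell markers, 3 plasma cell markers or 5 mast cell markers passed. Of 4 innate lymphoid markers 2 were higher in each group of the model and 1 was lower in vehicle livers. Of 4 endothelial markers 1 was lower in CLDN1 mAb livers. All 3 gall bladder and gut markers were higher in both groups of the model, and 1 of 3 pancreas markers was lower in both. Of 3 lymph node or spleen markers 1 was higher in vehicle livers. The part of these cell type differences in the interleukin results was not tested.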

How the data were processed

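RNA was sequenced from 17 livers, each library taken as 1 mouse. The authors deposited 1 table of counts normalized with cuffnorm (Cufflinks 2.2.1, build mm10, per the submitters' processing notes), a signal that is not whole reads; which aligner, annotation, strand setting and scaling they used is not given in the sources used here. Low values lay within 0.05 of a whole multiple of a step in 97.7% to 98.2% of cases, and the estimated depth of 27734992 to 59565319 fragments follows from that step. Because whole reads could not be recovered for nearly all genes, no count model was used.

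Symbols were found for 52398 of 52545 gene identifiers (99.7%), and coordinates and overlaps came from GENCODE mouse release 21. Exons of 23 members overlapped those of another gene, and not all of these overlaps are named above. The symbol rule matched 83 rows, of which 1 was left out. The main test was limma 3.58.1 (R 4.3.3) with an intensity trend on log2(value + 1), for 18624 genes with at least 10 normalized counts in 5 libraries, fitted over all 17 libraries by group, with Benjamini-Hochberg adjustment over all genes and a threshold of 0.05. Fold changes on this scale understate the change of low genes. Errors of fold changes are standard errors. Ratios of 2 genes within a library were compared with two-sided exact permutation tests (scipy 1.17.1), adjusted over 18 tests. The model was tested on simulated data. Other pseudocounts, filters and scalings, sample weights, a replicate block, a library code term and leaving out each library were tried.

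Every member could be named. Values per library were given to up to 3 members per role class and direction with the largest change in vehicle against regular diet and a mean of at least 50, to the 5 lowest p-values per direction between CLDN1 mAb and vehicle, and to the ratio pairs; a further few were described for their role. The members and lists were chosen with earlier results of these data known. The values of 1 gene of the signalling lists are not reported here.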

Additional observations from a re-analysis of the deposited data

Results flagged for a closer look

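In 19 of 150 sets of libraries (50 genes in 3 groups) 1 library stood apart from the rest of its group by Dixon's ratio, where chance gives about 1 in 20. Of these, 12 concerned regular diet replicate 1. That library was low among the regular diet livers for Il12rb2 at 2.46 normalized counts, Il17ra at 467, Il1rap at 7797, Il22ra1 at 22.1, Il33 at 41.8, Il5ra at 0, Il6ra at 496 and Il6st at 3732. It was high for Il17rc at 2835, Il18 at 1007, Il3ra at 442 and Il4ra at 3211. Regular diet replicate 3 was low for Il1b at 87.5, and regular diet replicate 2 was high for Il1f9 at 31.5.

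In the vehicle group, replicate 4 stood out for Il1f9 at 1413, replicate 1 was low for Il34 at 153, and replicate 2 was low for Il5ra at 0.895. In the CLDN1 mAb group, replicate 6 was high for Il23a at 112 and for Il34 at 536. The cause of these values was not tested.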

How the results depend on the processing

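Of the values of single tested members under the alternatives, 4228 kept their direction and their side of the threshold, 65 passed only under the alternative, 49 passed only in the main analysis and 2 reversed. Reversed were Il18 in vehicle against regular diet once libraries were scaled to 1 common total (0.13, adjusted p = 0.423, limma) and Il11ra1 in vehicle against regular diet with sample weights (0.28, adjusted p = 0.0277, limma). With the same total per library the median of all genes in vehicle against regular diet was 0.65, and with quantile normalization -0.13, against 0.04 in the main analysis. Members lower in vehicle than in regular diet numbered 1 with the same total, 5 with quantile normalization and 6 with sample weights, against 3, while all genes called lower numbered 1264, 5223 and 6042, against 3853. Members lower in CLDN1 mAb than in regular diet numbered 0, 1 and 4, against 2, and all genes 831, 3725 and 5183, against 2634. All genes called higher in vehicle than in regular diet numbered 9369, 4447 and 7151 in the same order, against 5547. With the same total Il13ra2, Il15ra, Il17rb, Il1b, Il2ra, Il3ra and Il4ra also passed as higher in vehicle against regular diet. With quantile normalization the higher calls of Il11, Il16, Il1a, Il1f9, Il20rb and Il4 were lost there. Between CLDN1 mAb and vehicle, sample weights called 2 members higher and 18 lower, and all other alternatives called 0. Leaving out each library in turn gave 30 to 34 higher and 2 to 5 lower members in vehicle against regular diet, 24 to 27 higher and 1 to 2 lower in CLDN1 mAb against regular diet, 0 to 0 in CLDN1 mAb against vehicle, and 8 to 10 ratios past the threshold. All genes called then numbered 5145 to 5951 higher and 3337 to 4729 lower in vehicle against regular diet. In CLDN1 mAb against regular diet they numbered 4198 to 5142 higher and 2144 to 3886 lower. The labels give no pairing of libraries with the same replicate number. Correlations of their deviations ran from -0.34 to 0.66. Libraries with different numbers were not compared, so these values cannot show whether more than a number is shared. With the replicate block 30 members were higher and 4 lower in vehicle against regular diet, and 25 and 2 in CLDN1 mAb against regular diet. With the block 0 of 18 ratios passed, but too few rearrangements remain for any ratio to pass, so this cannot decide about the ratios. All genes called with the block numbered 5393 higher and 3795 lower in vehicle, and 4408 and 2563 in CLDN1 mAb livers. Calls lost with the block were those of Il1a and Il16 in vehicle (adjusted p = 0.0628 and 0.0565, limma) and Il1rl1 in CLDN1 mAb livers (adjusted p = 0.0721, limma). Without the filter more genes entered, and 38 members were higher in vehicle livers, beside 6371 of all 35124 genes in that fit. The cause of these shifts was not tested. Depth limits the members with a few fragments per regular diet library, among them Il1r2, Il12b and Il11.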
